A study of Mus musculus with 7 samples.

Results

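Chemokine receptors were examined in lipid droplet-rich microglia of young and old mice after stroke. The 9 receptors are Ccr1, Ccr2, Ccr6, Ccr7, Cxcr2, Cxcr3, Cxcr4, Cxcr6 and Cx3cr1, and each was found by its gene symbol in all 7 libraries, so that 9 of the 50686 genes quantified are described here. The libraries came from 4 young mice aged 3 to 4 months, named 14C, 18C, 23C and 29C, and 3 old mice aged 21 to 22 months, named 2posI, 3posI and 4posI. All were male and on the C57BL/6 background, and none received PLX5622, the drug used elsewhere in the study to deplete microglia. All had undergone transient middle cerebral artery occlusion (MCAo) of 45 min, with the cells collected 4 days later. In the study this surgery was done under isoflurane, with buprenorphine given against pain. Cells of the forebrain were stained for CD11b, CD45 and the neutral lipid dye Bodipy, and Bodipy+ microglia were obtained by FACS. Each library holds the cells of 1 mouse. By flow cytometry the study takes CD11b+ cells with low CD45 as microglia, a gate meant to leave out infiltrating leukocytes such as monocytes, which carry CD11b with high CD45. There is no uninjured group among these libraries, so the comparison is of age after ischemia.

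Chemokine receptors are membrane proteins that couple to inhibitory G proteins and steer leukocytes along gradients of chemokines. Microglia are known for Cx3cr1, which binds fractalkine from neurons, whereas Ccr2 is the receptor that brings inflammatory monocytes out of the bone marrow and into injured tissue. Ccr7 guides dendritic cells and lymphocytes to lymph nodes, Cxcr2 guides neutrophils, and Cxcr3, Cxcr6 and Ccr6 are best known on lymphocytes. Cxcr4, the receptor of Cxcl12, is used by most leukocytes.

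In these cells Cx3cr1 was by far the most abundant of the 9 receptors in both ages. One old library, 3posI, had at least 6.57 times the young median of Ccr1, Ccr2, Ccr7, Cxcr2 and Cxcr4, and the lowest Cx3cr1 of all libraries. No receptor passed the test for an age difference at an adjusted p under 0.05 in the comparison of all 7 libraries. Ccr7, Cxcr2 and Cxcr3 had every old library above every young library.

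The library 3posI stood apart and bears on most results below. All 8 markers of monocytes were highest in it, with a summed level of 2871 CPM, against 185 to 482 CPM in the young libraries and 234 to 473 CPM in the other old libraries. Ly6c2, a surface antigen of inflammatory monocytes, was at 162 CPM in 3posI, 15.3 CPM in 2posI, 9.59 CPM in 4posI and at most 2.86 CPM in the young libraries. Chil3, a secreted lectin of monocytes, reached 1426 CPM in 3posI and at most 68.9 CPM elsewhere. Of the 10 markers of microglia, 9 were lowest in 3posI, and their summed level was 11351 CPM there against 21402 to 31114 CPM in the young libraries. None of these microglial markers was absent, and Tmem119 and P2ry12 were at 850 and 341 CPM in 3posI, so the labelled cell type was present in every library. Markers of border-associated macrophages summed to 1081 CPM in 3posI and to 69.7 to 364 CPM in the other libraries. Of these 6 markers, 4 were highest in 3posI, and most of the sum there was F13a1 (500 CPM) and Pf4 (315 CPM). Mrc1 and Cd163 were highest in 2posI, at 79.2 and 27.4 CPM, against 78.8 and 23.2 CPM in 3posI. Total expected counts were 36574083 to 53002386 per library, and 3posI had 42931779. Levels in CPM are counts scaled to the library size, corrected by trimmed means (TMM), and intervals on counts cover counting error only, since PCR copies could not be removed. The part of these marker levels in the results was not tested. In bulk samples of sorted cells, fewer cells of a type and less RNA per cell cannot be told apart.

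All 9 are protein-coding genes, placed here on GRCm38 by GENCODE vM21. On chromosome 9 lie Cx3cr1 (119901616 to 120069879, minus strand), Cxcr6 (123806475 to 123811760, plus), Ccr1 (123962124 to 123968692, minus) and Ccr2 (124101950 to 124113557, plus). Cxcr2 (74153989 to 74161246, plus) and Cxcr4 (128588199 to 128592293, minus) lie on chromosome 1. Ccr7 lies on chromosome 11 (99144196 to 99155077, minus), Ccr6 on chromosome 17 (8236043 to 8257141, plus) and Cxcr3 on chromosome X (101731535 to 101734269, minus).

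The 9 genes differ in how well reads can be assigned to them, which matters here because Ccr2 carries the highest ratio between libraries. Of all stretches of 50 bases in the annotated transcripts, close to the read length, 1.91% of those of Ccr2 also occur in another gene, as do 1.06% of those of Cx3cr1 and 6.68% of those of Cxcr2. Ccr1, Ccr6, Ccr7, Cxcr3, Cxcr4 and Cxcr6 share none. RSEM divides reads from such stretches between genes by estimation.

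Promoter sequence is shown for 2 receptors that were highest in 3posI, Ccr1 and Cxcr4, and for Ccr6, which was not. Each is the 250 bases before the RefSeq start on GRCm38.p6, read along the gene's strand. They lie at chr9:123968693-123968942 (minus strand), chr1:128592300-128592549 (minus strand) and chr17:8235793-8236042 (plus strand). RefSeq lists 2 starts for Ccr6, and the window shown is that of the first along the strand. Capitals mark matches on either strand to the core of PU.1 sites (GAGGAA or its complement) and of RUNX sites (TGTGGT or its complement), both factors of myeloid cells.
Ccr1: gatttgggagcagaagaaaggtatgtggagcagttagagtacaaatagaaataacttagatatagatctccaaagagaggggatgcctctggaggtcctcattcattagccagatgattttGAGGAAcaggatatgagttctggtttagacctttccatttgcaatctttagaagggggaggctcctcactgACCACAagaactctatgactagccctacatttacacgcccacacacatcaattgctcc
Cxcr4: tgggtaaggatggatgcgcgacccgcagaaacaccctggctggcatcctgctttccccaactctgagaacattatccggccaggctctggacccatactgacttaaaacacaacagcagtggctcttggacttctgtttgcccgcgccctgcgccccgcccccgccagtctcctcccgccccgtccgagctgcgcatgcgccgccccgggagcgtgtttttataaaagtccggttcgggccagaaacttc
Ccr6: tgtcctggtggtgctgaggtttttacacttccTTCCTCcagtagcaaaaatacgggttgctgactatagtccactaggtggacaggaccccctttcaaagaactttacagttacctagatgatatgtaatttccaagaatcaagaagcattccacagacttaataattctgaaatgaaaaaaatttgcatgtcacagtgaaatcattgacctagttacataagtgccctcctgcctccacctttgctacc
The window of Ccr1 held 1 PU.1 core and 1 RUNX core, that of Ccr6 held 1 PU.1 core, and that of Cxcr4 held neither. Over 32536 promoter windows of the same length, 23.4% held the PU.1 core and 14.0% held the RUNX core, so the matches are common. The AP-1 motif TGANTCA, found in 6.73% of all windows, was in none of these 3. The window before the other start of Ccr6, at chr17:8242276-8242525 (plus strand), held 0 PU.1 cores and 0 RUNX cores.

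Receptor levels were compared with each other in TPM, the abundance of transcripts scaled by gene length. Cx3cr1 ranged from 862 to 1582 TPM in young and from 387 to 1048 TPM in old libraries. It was followed in both ages by Ccr1, Cxcr4 and Ccr2, with young medians of 8.07, 7.17 and 1.83 TPM and old medians of 10.9, 7.04 and 5.37 TPM. The ranges of these 3 neighbours overlapped within each age, so their order is not fixed beyond the spread between libraries. The remaining 5 receptors had medians of at most 1.25 TPM in young and 2.27 TPM in old libraries. Among them, Ccr7 ranked 7 of 9 in young and 5 of 9 in old libraries by its median TPM, with ranges of 0.300 to 0.930 and 2.10 to 29.5 TPM. Cxcr6 was the lowest in young and Cxcr2 the lowest in old libraries. Only Cx3cr1 in both ages, and Cxcr3 above Cxcr6 in old libraries, stood clear of the next receptor in the order.

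Cx3cr1 made up 96.6% to 98.9% of the summed TPM of the 9 receptors in the young libraries, 96.9% in 2posI and 97.7% in 4posI. In 3posI it made up 58.6%, followed by Ccr1 with 16.2%, Ccr2 with 13.2%, Cxcr4 with 6.38% and Ccr7 with 4.46%. Ccr2 was at 22.5% of the Cx3cr1 level (TPM) in 3posI and at 0.0821% to 0.728% of it in the other 6 libraries. The library with the second-highest value of this ratio was the young mouse 14C.

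**Figure D1:**
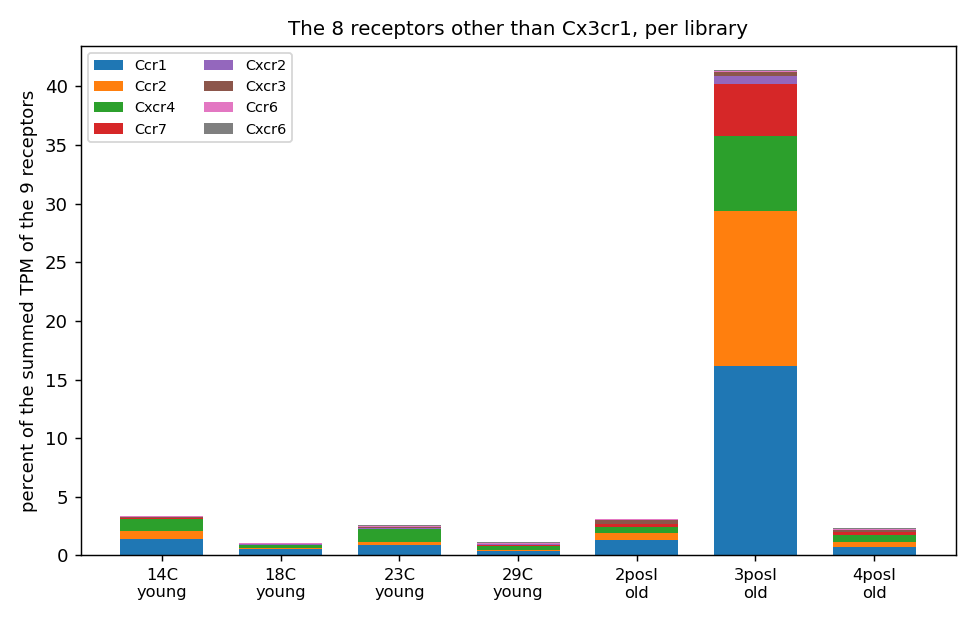
Share of the 8 receptors other than Cx3cr1 in the summed TPM of the 9 receptors (vertical axis, percent), for each library (horizontal axis, with the age group). Stacked colours are receptors; the rest up to 100% is Cx3cr1. The bar of 3posI reaches above 40%, with Ccr1 at 16.2% and Ccr2 at 13.2%, whereas the other bars stay below 4%.

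Cx3cr1, the fractalkine receptor and the microglial member of the family, was at 2633, 3566, 1955 and 2596 CPM in the young libraries 14C, 18C, 23C and 29C. In the old libraries it was at 2189 CPM in 2posI, 984 CPM in 3posI and 2390 CPM in 4posI. The ages overlapped, since 23C was below both 2posI and 4posI, and 3posI alone lay below all young libraries. The log2 fold change of old over young was -0.54 (SE 0.33, 95% interval -1.28 to 0.21, n = 3 and 4), with an adjusted p of 0.409 (quasi-likelihood test of edgeR, Benjamini-Hochberg). Without 3posI it was -0.23 (SE 0.24). On the log2 scale, Cx3cr1 was 1.41 below the young median in 3posI, and the summed microglial markers were 1.26 below theirs. The gene spans several others in the annotation, among them Csrnp1 on the same strand (66.0 to 266 CPM), and the libraries are not stranded, but Cx3cr1 lay above the highest value of each of these in every library.

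Ccr1, a receptor of Ccl3, Ccl5 and related chemokines on myeloid cells, was at 32.3, 16.0, 15.5 and 8.32 CPM in young 14C, 18C, 23C and 29C. It was at 24.7, 234 and 15.4 CPM in old 2posI, 3posI and 4posI. Only 3posI lay above the young range, and 4posI lay below 3 of the 4 young libraries. Old over young gave a log2 fold change of 2.34 (SE 0.88, 95% interval 0.35 to 4.34), with an unadjusted p of 0.0263 and an adjusted p of 0.202 by edgeR. Without 3posI it was 0.15 (SE 0.45, adjusted p = 0.898 by edgeR).

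Ccr2, the receptor of Ccl2, Ccl7 and Ccl12, was at 19.3, 3.33, 4.86 and 2.06 CPM in young 14C, 18C, 23C and 29C. Old libraries held 14.1 CPM in 2posI, 231 CPM in 3posI and 9.09 CPM in 4posI. Young 14C, with 19.3 CPM, lay above 2posI and 4posI, whereas the other 3 young libraries lay below every old library. Its log2 fold change was 3.52 (SE 1.19, 95% interval 0.81 to 6.23), with an unadjusted p of 0.0169 and an adjusted p of 0.171 by edgeR. Leaving out 3posI gave 0.65 (SE 0.76, adjusted p = 0.704 by edgeR), and leaving out 14C gave 4.63. After 3posI, the summed monocyte markers were highest in 14C (482 CPM) and 2posI (473 CPM), the libraries with the next-highest Ccr1 and Ccr2. Fn1, which encodes fibronectin and is not specific to monocytes, made up 405 and 383 CPM of these sums, whereas Ly6c2 was at 2.86 and 15.3 CPM. Without Fn1 the order differed, and 4posI (124 CPM) came next after 3posI, before 2posI (90.0 CPM) and 14C (76.8 CPM). By contrast, 4posI had less Ccr1 and Ccr2 than 2posI and 14C. The part of these markers in the Ccr1 and Ccr2 values was not tested. In 3posI Ccr2 was 56.3 times the young median, the highest such ratio of the 9 receptors.

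Ccr7, the receptor of Ccl19 and Ccl21, had the largest fold change. It was at 1.04, 1.03, 0.412 and 1.38 CPM in young 14C, 18C, 23C and 29C, from 21 to 64 counts. Old libraries held 3.31 CPM in 2posI, 44.8 CPM in 3posI and 3.07 CPM in 4posI, from 111, 1752 and 142 counts. All 3 old libraries were above all 4 young ones, with or without 3posI. The log2 fold change was 4.14 (SE 0.97, 95% interval 1.94 to 6.35), with an adjusted p of 0.0856 by edgeR, and without 3posI it was 1.72 (SE 0.45, adjusted p = 0.116 by edgeR). With no filter on low counts the adjusted p of Ccr7 was 0.0332 by edgeR, and 1.05% of the 27354 genes then tested passed. Of 6 markers of dendritic cells, 4 were higher in old mice, with a median log2 fold change of 2.02 over the list (0.22 without 3posI). Flt3, a growth factor receptor, and the chemokine Ccl22 were highest in 3posI, at 6.72 and 3.45 CPM. Cd209a, a lectin, was at 0.823, 1.48, 0.196 and 0.0860 CPM in the young and at 6.85, 5.09 and 4.49 CPM in the old libraries, without overlap (log2 fold change 3.08). The list summed to 70.4 CPM in 3posI and to 97.0 to 267 CPM in the young libraries, but most of each sum was Fscn1, an actin-bundling protein that was at 52.1 CPM in 3posI. Without Fscn1 the sums were 3.71 to 6.13 CPM in young libraries, 9.09 CPM in 2posI, 18.3 CPM in 3posI and 8.51 CPM in 4posI. The ages then did not overlap, but in 2posI and 4posI this rested on Cd209a alone. It made up 6.85 of the 9.09 CPM in 2posI and 4.49 of the 8.51 CPM in 4posI. The list as a whole was thus not higher in every old library. Fscn1 itself was lower in old mice (log2 fold change -0.73), as was Zbtb46, a transcription factor (-0.81). Zbtb46 was at 2.40 CPM in 3posI, within its young range of 2.26 to 3.76 CPM. The part of these markers in the Ccr7 values was not tested.

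Ccr6, the receptor of Ccl20, was low throughout, at 22 to 55 counts per library. It was at 0.931, 0.761, 0.431 and 1.18 CPM in the young and at 0.715, 0.639 and 0.691 CPM in the old libraries. The old values lay within the young range, and 3posI was not high. For the age difference, the log2 fold change was -0.28 (SE 0.44, 95% interval -1.27 to 0.72, adjusted p = 0.771 by edgeR).

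**Figure D2:**
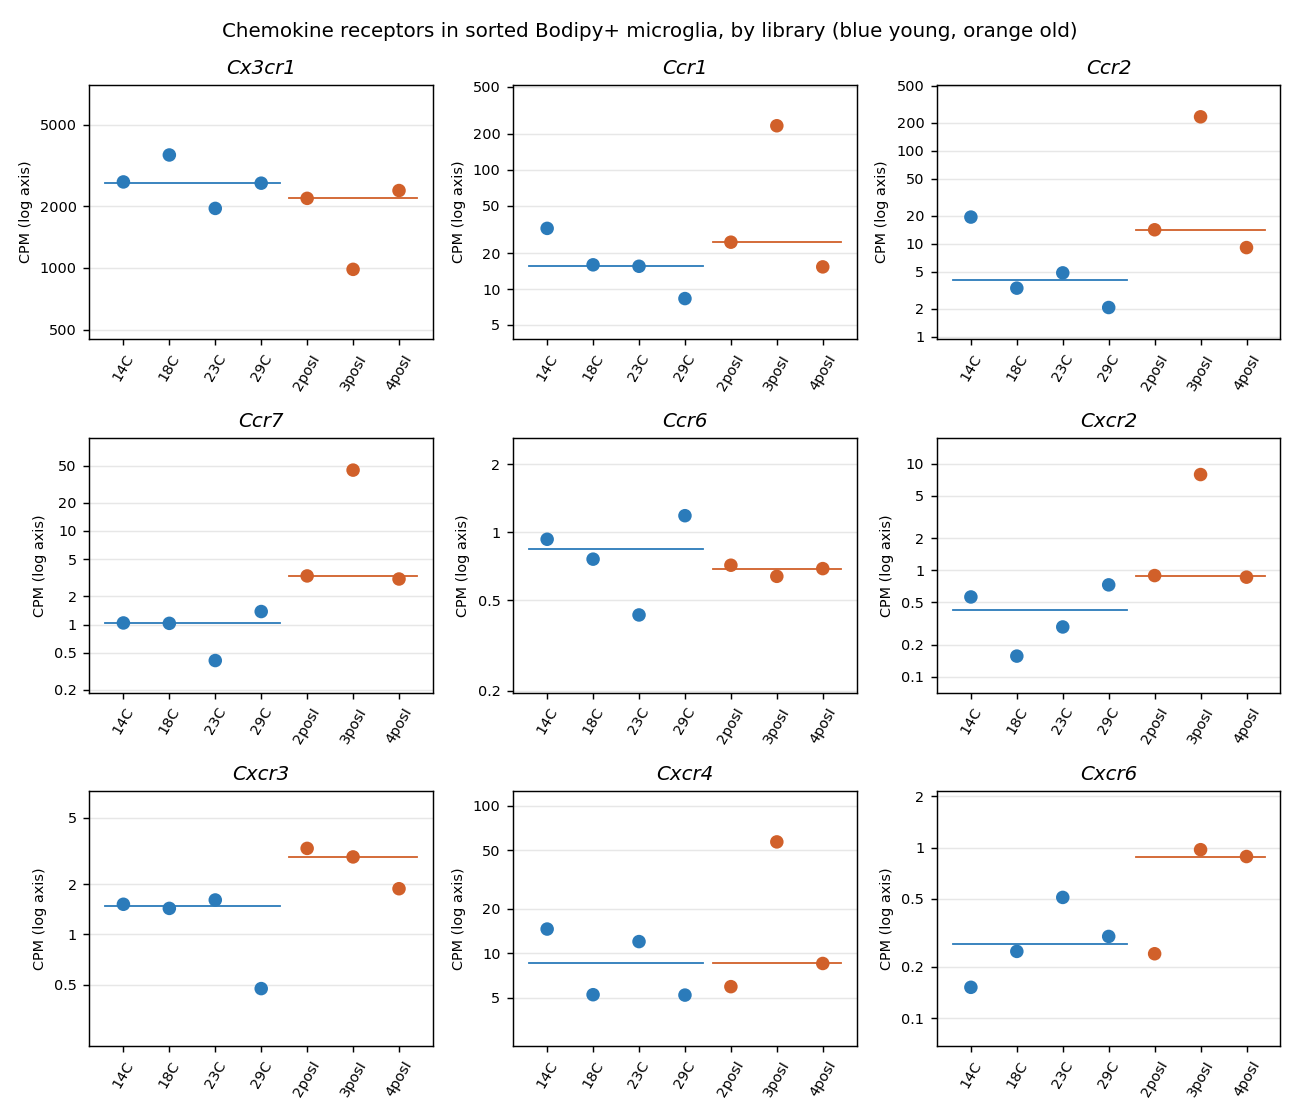
Level of each receptor in CPM (vertical axes, log scale, a range of its own in each panel) in the 7 libraries (horizontal axes). Points are libraries, blue for young and orange for old, and lines are group medians. In Ccr1, Ccr2, Ccr7, Cxcr2 and Cxcr4 the library 3posI is far above the rest; in Ccr7, Cxcr2 and Cxcr3 the ages do not overlap.

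Cxcr2, the receptor of Cxcl1, Cxcl2 and related neutrophil attractants, was at 0.563, 0.157, 0.294 and 0.731 CPM in young 14C, 18C, 23C and 29C. It was at 0.894, 7.95 and 0.864 CPM in old 2posI, 3posI and 4posI. Every old library was above every young one, but the counts outside 3posI were only 7 to 40, and the counting intervals of 29C (0.506 to 1.02 CPM) and 4posI (0.617 to 1.18 CPM) overlapped. Its log2 fold change was 2.88 (SE 0.87, 95% interval 0.89 to 4.87, adjusted p = 0.142 by edgeR), and without 3posI it was 1.01 (SE 0.64, adjusted p = 0.457 by edgeR). The 7 neutrophil markers summed to 141 CPM in young 29C and to 1.26 CPM in young 23C, and 3posI had the next-highest sum after 29C. S100a8, the most abundant of them, was at 74.9 CPM in 29C and 66.0 CPM in 3posI, and its partner S100a9 at 21.1 and 26.7 CPM. Of the 7 markers, S100a9 was the only 1 that was highest in 3posI. Camp, Ngp and Ltf were at 0.741, 1.79 and 2.43 CPM in 3posI. They were at 5.03, 17.4 and 17.8 CPM in 29C, and at 4.60, 13.1 and 6.91 CPM in 4posI. Ly6g, the defining antigen of neutrophils, was at most 0.298 CPM in any library. The part of these markers in the Cxcr2 values was not tested.

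Cxcr3, the receptor of Cxcl9, Cxcl10 and Cxcl11, was the receptor with higher old values that depended least on 3posI. Young libraries 14C, 18C, 23C and 29C held 1.52, 1.43, 1.61 and 0.473 CPM, and old 2posI, 3posI and 4posI held 3.28, 2.91 and 1.88 CPM. The ages did not overlap, and 29C was the lowest by a wide gap. Cxcr3 lies on chromosome X, which the main fit leaves out. In the fit with X, Y and the mitochondrial genome kept, the log2 fold change was 1.09 (SE 0.44, 95% interval 0.09 to 2.09), with an unadjusted p of 0.0357 and an adjusted p of 0.230 by edgeR. Without 3posI it was 1.03 (SE 0.51, adjusted p = 0.336 by edgeR). All 9 markers of T cells were higher in old mice too, with a median log2 fold change of 3.94 (3.52 without 3posI). An unadjusted p under 0.05 by edgeR was found for 8 of them, beside 18.9% of all genes tested. The adjusted threshold was passed by 0 in edgeR and limma-voom, beside 0.803% and 0.814% of all genes. DESeq2 called 1, beside 9.51% of the genes for which it gave an adjusted p. Cd2, Lck, Trac and Cd8a, 4 of the 9, had every old library above every young one, beside 8.67% of all genes. However, Cd3d, Cd3e, Cd3g, Cd2, Trac, Trbc2 and Cd8a were at most 0.0866 CPM in any young library. They exceeded 10 counts, as the filter asks, only in old libraries, so that higher old values were largely set by the filter. The counts of 9, 8 and 4 are therefore no support for an age difference of the T cell markers. All 9 together summed to 1.55 to 10.8 CPM in young and 5.38 to 11.9 CPM in old libraries. Most of each sum was Cd4, which myeloid cells can also express, except in 4posI, where Cd4 made up 1.23 of 5.38 CPM. Without Cd4 the sums were 0.237 to 0.667 CPM in young libraries, 1.64 CPM in 2posI, 5.11 CPM in 3posI and 4.15 CPM in 4posI. The defining genes Cd3d, Cd3e and Cd3g were at 0 in 2posI, the library with most Cxcr3, and at most 0.562 CPM in any library. The part of these markers in the Cxcr3 values was not tested.

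Cxcr4, the receptor of Cxcl12, was at 14.6, 5.26, 12.02 and 5.23 CPM in young 14C, 18C, 23C and 29C. Old libraries held 5.96 CPM in 2posI, 56.8 CPM in 3posI and 8.55 CPM in 4posI. Apart from 3posI, the old values lay within the young range. Over all 7 libraries the log2 fold change was 1.36 (SE 0.75, 95% interval -0.35 to 3.06, adjusted p = 0.364 by edgeR), and without 3posI it turned to -0.35 (SE 0.45, adjusted p = 0.729 by edgeR).

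Cxcr6, the receptor of Cxcl16, was the scarcest receptor, with 7 to 41 counts per library. It was at 0.152, 0.246, 0.510 and 0.301 CPM in the young and at 0.238, 0.971 and 0.885 CPM in the old libraries. Old 3posI and 4posI were above the young range, and 2posI was within it. The exact Poisson interval was 0.687 to 1.33 CPM in 3posI and 0.333 to 0.747 CPM in young 23C, which overlap. Its log2 fold change was 1.20 (SE 0.63, 95% interval -0.23 to 2.63, adjusted p = 0.339 by edgeR). Cxcr6 lies within Fyco1 on the opposite strand (17.6 to 26.4 CPM). The annotated transcripts of Cxcr6 share no 50-base stretch with another gene, so that without strand only reads of unspliced Fyco1 could be taken for Cxcr6.

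Over the 8 receptors on autosomes, 0 passed an adjusted p under 0.05 in the quasi-likelihood test of edgeR, beside 0.803% of the 17559 genes tested (0.57% higher and 0.233% lower in old mice). limma-voom and DESeq2 also called 0, but DESeq2 gave no adjusted p for Ccr2, Ccr7 and Cxcr2. An unadjusted p under 0.05 was found for 4 of the 8, Ccr1, Ccr2, Ccr7 and Cxcr2, beside 18.9% of all genes tested, and with X kept for 5 of the 9, beside 18.7%. By limma-voom such a p was found for 2 of the 8, beside 18.2% of all genes. By DESeq2 it was found for 1 receptor, beside 20.8% of the 17471 genes for which DESeq2 gave a p. Ccr2, Ccr7 and Cxcr2 had no adjusted p there, although the rarer Ccr6 and Cxcr6 had one. They cannot be counted as tested and not called by DESeq2. At an adjusted p under 0.1 there was 1 receptor, Ccr7, beside 3.63% of all genes. Old libraries were all above young ones for 2 of the 8 (Ccr7 and Cxcr2), beside 8.67% of all genes, and for 3 of the 9 with X kept, beside 8.62%. None had all old libraries below the young ones, beside 9.07% of all genes. The median log2 fold change was 1.85 over the 8 receptors and -0.01 over all genes tested, and without 3posI these medians were 0.40 and -0.02. In CPM, the highest value was in 3posI for 6 of the 8, Ccr1, Ccr2, Ccr7, Cxcr2, Cxcr4 and Cxcr6, as it was for 21.5% of all genes tested. In TPM the highest Cxcr6 was in 4posI (0.68) and not in 3posI (0.66).

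**Figure D3:**
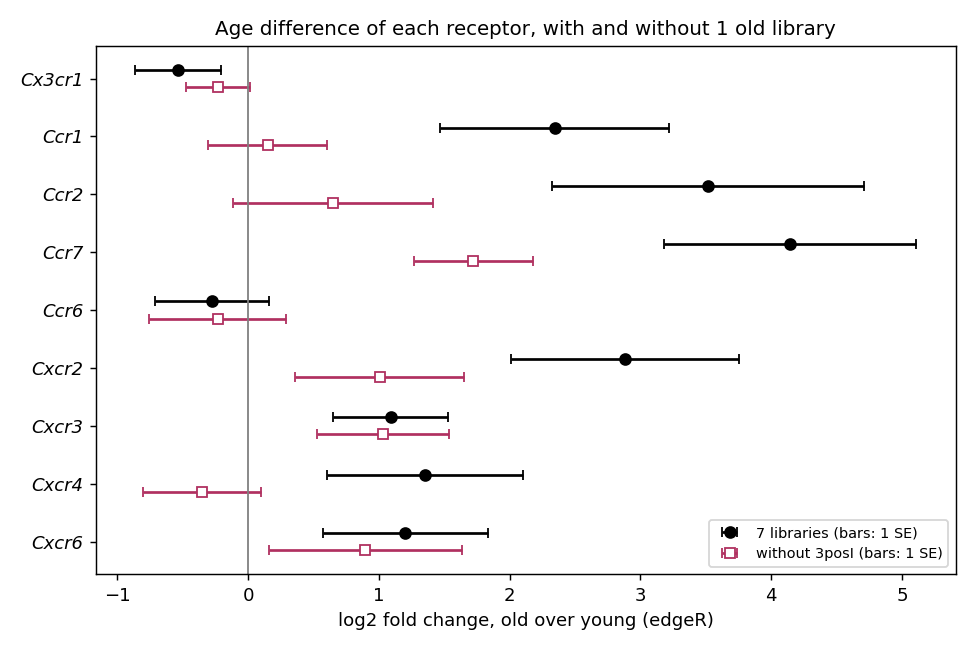
Log2 fold change of old over young by edgeR for each receptor (horizontal axis), with all 7 libraries (filled circles) and without 3posI (open squares); bars are 1 SE, and Cxcr3 is from the fit with chromosome X kept. Without 3posI, Ccr1 moved from 2.34 to 0.15 and Cxcr4 from 1.36 to -0.35, whereas Cxcr3 moved from 1.09 to 1.03.

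On the TPM scale, the exact permutation test (two-sided, on log2 of TPM plus 0.1) gave p = 0.0571 for Ccr7, Cxcr2 and Cxcr3. This is the smallest p that 3 against 4 libraries allow in this two-sided form. The other 6 receptors had exact permutation p of 0.171 to 0.629, and the differences in log2 TPM ranged from -0.70 for Cx3cr1 to 2.85 for Ccr7.

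The receptors differed in which libraries were high besides 3posI. Between Ccr1 and Ccr2, Pearson's r of log2 CPM was 0.975 over the 7 libraries and 0.914 over the 6 without 3posI, the highest of the 21 pairs of receptors whose mean was 1 CPM or more. In both, 14C and 2posI came next after 3posI and 29C was lowest. Ccr7 and Cxcr4, in contrast, had r of 0.681 over the 7 libraries and -0.43 without 3posI. Cx3cr1 had r of -0.83 with Ccr2 over the 7 libraries and -0.31 without 3posI. These values describe 7 libraries for which the labels name no batch. The libraries also differ in the monocyte and microglial marker levels given above, and the part of those levels was not tested.

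Genes most like each of the 4 receptors above 10 CPM were sought among 8146 tested genes by the same r. For Cx3cr1 they were Mfng (0.997), a glycosyltransferase that modifies Notch, Clip1 (0.997), a microtubule-binding protein, and Il16 (0.991), a cytokine. For Ccr1 they were Slc11a1 (0.993), a metal transporter of phagosomes, Mvd (0.992), an enzyme of sterol synthesis, and Abcc1 (0.987), an export pump. For Ccr2 they were Dcun1d1 (0.988), Mvd (0.984) and Irs2 (0.981), an adaptor of insulin signalling. For Cxcr4 they were Bhlhe40 (0.996), a transcriptional repressor, Prosc (0.992) and Tiparp (0.988). Without 3posI these 12 values of r were 0.933 to 0.988. The genes were picked by r over all 7 libraries, so high values over a part of them are largely set by that choice. A high r does not mean a change of like size, since Slc11a1 was at 383 CPM in 3posI and 189 to 239 CPM in the others, a much smaller step than that of Ccr1.

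**Figure D4:**
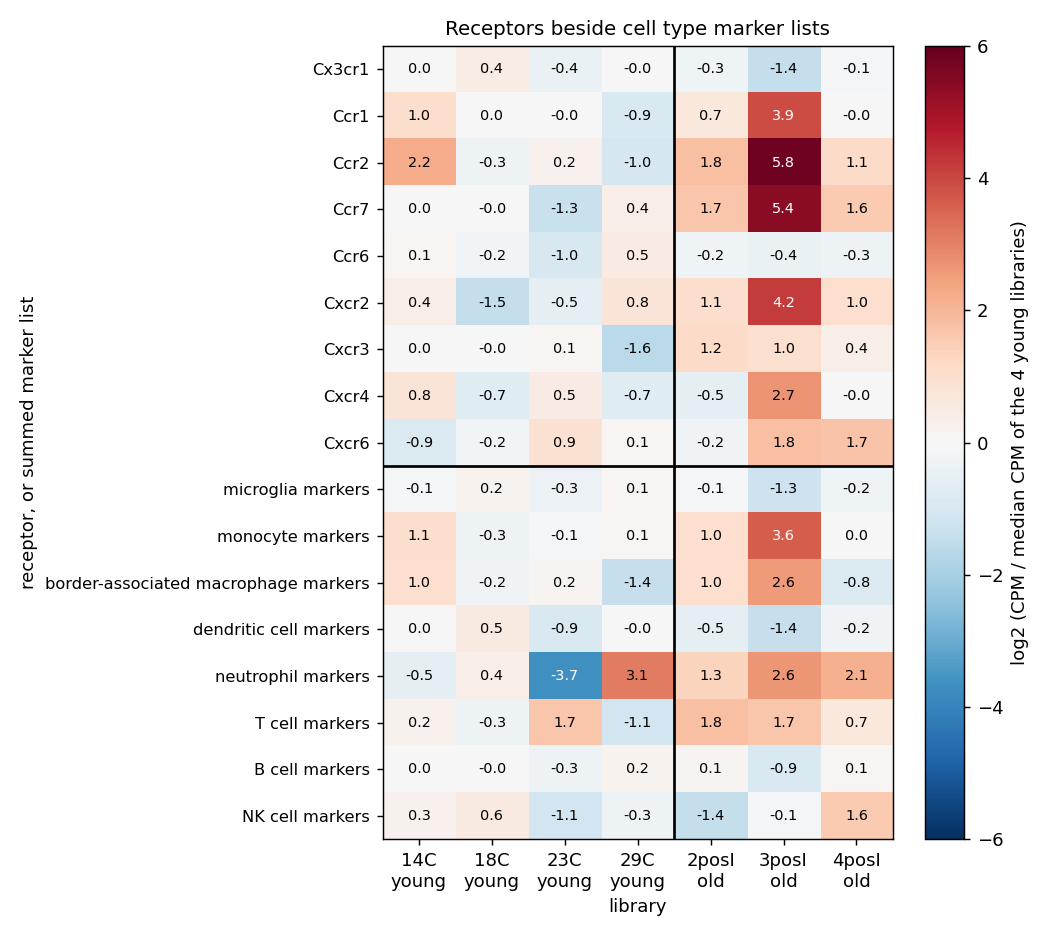
Log2 of the level in each library (columns) over the median of the 4 young libraries, for the 9 receptors (upper rows) and for the summed markers of 8 cell types (lower rows); red is higher and blue lower. In 3posI, Ccr2 was 5.82 and Ccr7 5.44 above the young median, monocyte markers were 3.63 above and microglial markers 1.26 below.

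Ccr1 and Ccr2 belong to a cluster of receptor genes on chromosome 9 that also holds Cxcr6, Xcr1, Ccr9 and Ccr3. From the start of Ccr1 at 123962124 (GRCm38, GENCODE vM21), Ccr3 begins 59.8 kb and Ccr2 139.8 kb further on. The high level in 3posI was not shared by all genes of the cluster. In 3posI Ccr1 was 14.9 times, Ccr2 56.3 times and Cxcr6 3.55 times the young median. Ccr9, a receptor of gut-homing lymphocytes, was at 0.767 CPM there, above its young range of 0.346 to 0.430 CPM, but was higher still in 4posI (1.23 CPM). Ccr3, the eotaxin receptor, was at 0.204 CPM in 3posI, below its young range of 0.255 to 0.909 CPM, and at 0.173 CPM in 4posI. Xcr1, a receptor of cross-presenting dendritic cells, was at 0.486 CPM in 3posI, below its young range of 0.604 to 0.996 CPM.

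Of 9 other conventional chemokine receptors and related genes, 6 were tested. The adjusted threshold was passed by 0 in edgeR, limma-voom or DESeq2, beside 0.803%, 0.814% and 9.51% of the genes with an adjusted p in each. An unadjusted p under 0.05 by edgeR was found for 0, beside 18.9% of all genes tested. Ccrl2, a chemerin-binding relative, had a log2 fold change of -0.53 (SE 0.31), with 182 CPM in old 2posI and 407 to 611 CPM in the young libraries. Old 3posI and 4posI, at 437 and 461 CPM, lay within the young range, and without 2posI the value was -0.21. The median over the 6 was -0.43. Of the 4 atypical receptors, which take up chemokines without signalling through G proteins, Ackr1 and Ackr3 were tested, and 0 passed by edgeR, limma-voom or DESeq2, with 0 at an unadjusted p under 0.05.

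For ligands of the 9 receptors, the list of 23 symbols matched 25 rows, since Ccl19 and Ccl21a each have 2 identifiers, and 20 rows were tested. By edgeR 1 passed, lower in old mice, beside 0.233% of all genes called lower. DESeq2 called 2, beside 9.51% of the genes for which it gave an adjusted p, and limma-voom 0, beside 0.814%. The gene called by edgeR was Cxcl12, the ligand of Cxcr4. Cxcl12 was at 6.80, 5.46, 6.47 and 8.13 CPM in the young and at 3.04, 3.09 and 2.79 CPM in the old libraries, and the log2 fold change was -1.18 (SE 0.21), with an adjusted p of 0.0493 by edgeR. The ages did not overlap, but the call was lost with any 1 library left out, where the adjusted p of Cxcl12 by edgeR was 0.0692 to 0.169, in limma-voom (adjusted p = 0.0587), and in edgeR with X, Y and M kept (adjusted p = 0.0505). Of 4 markers of endothelial cells, a known source of Cxcl12, 4 had lower values in old mice, with a median log2 fold change of -0.78, and they summed to 57.7 to 112 CPM in young and 45.4 to 57.6 CPM in old libraries. Of these, 0 passed by edgeR or limma-voom, beside 0.803% and 0.814% of all genes. DESeq2 called 2, beside 9.51% of the genes for which it gave an adjusted p. Pecam1 (log2 fold change -0.69) and Ly6c1 (-1.24) had every old library below every young one, beside 9.07% of all genes. The part of these endothelial markers in the Cxcl12 values was not tested. Ccl5, a ligand of Ccr1, was at 9.94 to 36.1 CPM in young and 44.9 to 83.2 CPM in old libraries without overlap, and its log2 fold change was 1.40 (SE 0.48), with an adjusted p of 0.171 by edgeR and 0.0324 by DESeq2. Cxcl16, the ligand of Cxcr6, also did not overlap, at 305 to 394 CPM in young and 410 to 498 CPM in old libraries (log2 fold change 0.33, SE 0.14, adjusted p = 0.253 by edgeR). The median log2 fold change over the 20 rows was 0.35, and 0.04 without 3posI.

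Among ligands of Ccr2, Ccl7 was highest in 3posI at 267 CPM, against 20.6 to 65.0 CPM in all others, and Ccl2 was highest there at 306 CPM, against 112 to 195 CPM. Their log2 fold changes were 1.41 (SE 0.71) and 0.27 (SE 0.32), and both turned negative without 3posI. Ccl12, a further ligand of Ccr2, was at 129 to 297 CPM in young and 178 to 333 CPM in old libraries (log2 fold change 0.37, SE 0.31). Ccl8 was at 204 CPM in 2posI and 104 CPM in 3posI, at 13.2 CPM in 4posI, and at 8.46 to 33.7 CPM in the young libraries (log2 fold change 2.36, SE 0.82, adjusted p = 0.176 by edgeR). Ccl6 and Ccl9, ligands of Ccr1, were highest in 3posI at 310 and 370 CPM, with log2 fold changes of 0.62 and 0.76, and of 0.16 and 0.29 without 3posI. The abundant Ccl3 and Ccl4 were both lowest in 3posI, at 470 and 662 CPM, against 697 to 1364 and 1090 to 2190 CPM in the other libraries (log2 fold changes -0.20 and -0.34). Cxcl2, a ligand of Cxcr2, was at 12.6 CPM in 2posI, 83.0 CPM in 3posI, 61.2 CPM in 4posI and 72.8 to 125 CPM in the young libraries (log2 fold change -0.94, SE 0.52, and -0.48 without 2posI). Cxcl10, a ligand of Cxcr3, was at 66.0 to 229 CPM overall (log2 fold change -0.17, SE 0.41). Fractalkine itself, Cx3cl1, was at 1.01 to 3.20 CPM, and Ccl20, the ligand of Ccr6, was at 0 in 6 of the 7 libraries.

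All 23 genes of receptor signalling and desensitization were tested, and by edgeR 1 passed, higher in old mice, beside 0.57% of all genes called higher. DESeq2 called 3, beside 9.51% of the genes for which it gave an adjusted p, and limma-voom 1, beside 0.814% of all genes. The gene called by edgeR was Grk2, the kinase that phosphorylates active receptors and starts their uptake. Grk2 was at 69.6, 76.5, 53.6 and 70.2 CPM in the young and at 111, 119 and 119 CPM in the old libraries, and the log2 fold change was 0.79 (SE 0.14), with an adjusted p of 0.0470 by edgeR. The ages did not overlap, and the call was lost with any 1 library left out (adjusted p of Grk2 0.0681 to 0.150 by edgeR) and with upper-quartile factors (adjusted p = 0.0505 by edgeR). Grk5, a kinase of the same family, was at 0.409 to 0.671 CPM in young and 1.23 to 2.76 CPM in old libraries (log2 fold change 1.73, SE 0.39, adjusted p = 0.0805 by edgeR), and Grk3 and Grk6 had log2 fold changes of 0.39 and 0.34.

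The other abundant signalling genes did not pass. The G protein subunits Gnai2, Gnb1 and Gng2 had log2 fold changes of 0.35, 0.32 and 0.38, and Gnai3 and Gnb2 of -0.0015 and -0.0014. Arrestins, which uncouple receptors from G proteins, were at 0.45 for Arrb1 and -0.09 for Arrb2. Regulators that shorten G protein signals were at -0.30 for Rgs1, 0.17 for Rgs2, 0.13 for Rgs10 and 0.14 for Rgs19. Effectors of migration were at -0.11 for Pik3cg, -0.09 for Pik3r5, 0.20 for Rac2, 0.31 for Dock2, -0.22 for Elmo1 and 0.14 for Plcb2. The median over the 23 genes was 0.17, and 0.22 without 3posI.

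**Figure D5:**
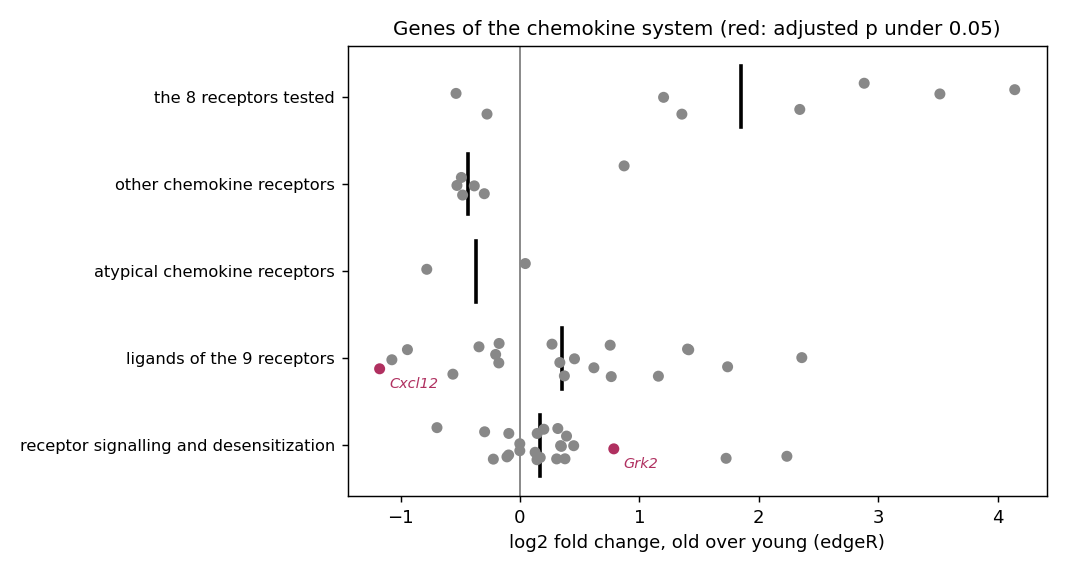
Log2 fold change of old over young by edgeR (horizontal axis) of the genes tested in each list (rows); points are genes, spread vertically to be visible, black bars are list medians, and red points passed an adjusted p under 0.05. Only Cxcl12 (-1.18) and Grk2 (0.79) are red; the medians were 1.85 for the 8 receptors, -0.43 for other receptors, 0.35 for ligands and 0.17 for signalling genes.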

How the data were processed

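Bodipy+ microglia of 4 young and 3 old mice were sequenced after Smart-seq2 amplification, without strand; no molecular identifiers are named. The authors trimmed reads with skewer (quality control by FastQC 0.11.5), aligned them by STAR to GRCm38 and quantified GENCODE m15 genes by RSEM (both versions not given in the sources used here). For RNA, the labels name a PureLink kit and the methods PicoPure. The authors deposited expected counts, which are not normalized, and TPM values, scaled within each library by gene length. The FPKM values the authors deposited, from the same RSEM run, were not used. RSEM divides reads shared between genes.

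Expected counts were rounded. Kept were genes whose expected count exceeded 10 in 1 or more libraries and that lie off X, Y and M (17559 genes); Cxcr3 came from a fit with them kept. In R 4.3.3, edgeR 4.0.16 gave TMM factors and quasi-likelihood tests of age, with Benjamini-Hochberg adjustment at 0.05. Log2 CPM has a prior count of 1. TPM was tested by exact permutation with a pseudocount of 0.1. Positions come from GENCODE vM21 and promoters from RefSeq, which lists 8 of the 9 receptors (none for Ccr7). The code was tested on simulated counts. The labels give 1 mouse per library and no batch or pairing.

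The receptors, gene lists and tests were chosen with earlier results of these data known. One gene of the lists is not reported here. Named genes are the 9 receptors, list genes with a mean of at least 10 CPM or an adjusted p under 0.05, and the 3 genes most like each receptor above 10 CPM. Marker genes, neighbours of Ccr1 on chromosome 9 and other list genes below 10 CPM, such as Grk5, Ackr1, Ackr3, Cx3cl1 and Ccl20, fall outside this rule and were chosen after their values were seen. Alternatives were limma-voom (limma 3.58.1), DESeq2 1.42.0, RLE and upper-quartile factors, an effective-length offset, 2 other filters, X, Y and M kept, a threshold of 0.1, a pseudocount of 1 and each library left out.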

Additional observations from a re-analysis of the deposited data

Results flagged for a closer look

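Among the 4 young libraries, the gap between 1 library and its nearest neighbour exceeded the 95% critical value of Dixon's test, as a share of the range, for 4 of the 43 genes named. Chance alone gives about 2.15 such genes. For Ccr2 the highest library, 14C at 19.3 CPM, took 0.838 of the range. For Cxcr3 the lowest, 29C at 0.473 CPM, took 0.845. For Cxcl10 the highest, 29C at 223 CPM, took 0.919. For Grk3 the lowest, 23C at 7.35 CPM, took 0.861. The group of 3 old libraries, which holds 3posI, is too small for this rule.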

How the results depend on the processing

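The count of receptors past the threshold was 0 under limma-voom, DESeq2, RLE and upper-quartile factors, the effective-length offset, filterByExpr, chromosomes X, Y and M kept and each library left out. It was 1, Ccr7, with no filter on low counts and at an adjusted p under 0.1. The count over all genes, 141, was 1403 with DESeq2, 213 with the effective-length offset and 288 with no filter, and 1 without 14C, 18C or 2posI, 2 without 29C, 13 without 23C, 82 without 4posI and 157 without 3posI; the cause was not tested. Of 134 fold changes of receptors under an alternative, 132 kept their direction and side of the threshold, 1 passed (Ccr7, 4.12 on the log2 scale with no filter) and 1 turned (Cxcr4, -0.35 without 3posI, and -0.30 in log2 TPM). With a pseudocount of 1, no TPM difference changed direction or side of the threshold. For 3 of the 132, from DESeq2, there is no adjusted p. With 1 library left out, Cxcr4 ranged from -0.35 to 1.81 (log2 TPM -0.30 to 1.35). Of 510 such values of named pathway genes, 29 changed sign, 17 lost the threshold (Cxcl12 in 9 and Grk2 in 8) and 1 passed it (Ccl5 in DESeq2). Gnai3 was 0.0063 with DESeq2 and with RLE factors, 0.012 with the effective-length offset and 0.0042 with filterByExpr. Gnb2 was 0.015 with limma-voom, 0.0067 with DESeq2 and with RLE factors, 0.0056 with filterByExpr and 0.34 with the offset. With 1 library left out, Ccl2 ranged from -0.24 to 0.52, Ccl3 from -0.64 to 0.10, Ccl7 from -0.20 to 1.86, Cxcl10 from -0.83 to 0.15, Gnai3 from -0.16 to 0.11, Gnb2 from -0.094 to 0.12, Rgs1 from -0.48 to 0.011, Rgs2 from -0.11 to 0.36, Rgs10 from -0.14 to 0.39, Pik3cg from -0.29 to 0.090, Pik3r5 from -0.32 to 0.042 and Plcb2 from -0.014 to 0.32. The cause of these changes of sign was not tested. No paired analysis was possible because the labels give no pairing of young and old mice. Depth limits Ccr6, Cxcr2 and Cxcr6, which rest on fewer than 60 counts in most libraries, and 3 against 4 mice limit all tests.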
